A study of Mus musculus with 9 samples.

Results

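The genes described here are 9 genes named for proteins of the small ribosomal subunit, Rps4l, Rps12, Rps13, Rps18, Rps19, Rps20, Rps23, Rps24 and Rps27rt. They were chosen by gene name, leaving out pseudogenes with -ps in the name, from the 489 distinct genes that the authors list for mouse kidney. RNA was sequenced from kidneys of male ICR mice, an outbred stock, in 3 groups of 3 mice each. Young mice were 2 months old and untreated, old mice were 20 months old and untreated, and 3HB mice were 20 months old and had received 3HB (3-hydroxybutyrate, a ketone body, given as its sodium salt) in their drinking water (1 g/L), starting when they were 11 months old. The methods paragraph on sequencing names muscle, while the labels and the paper's results, figure legends and data statement name kidney. Of 16 kidney markers looked up, only Lrp2 of the proximal tubule was listed (68.6 to 154.5 in the 9 mice), and 0 of 10 skeletal muscle markers were. These counts cannot decide the tissue, since only genes called between groups are listed.

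The values come as 2 tables, each limited to genes called by the authors in its own contrast. The table for 3HB against old has 113 genes and the table for young against old has 389. Of the 9 genes, 8 stand in the table for 3HB against old, and Rps4l stands alone in the table for young against old. None was called in both. Their presence therefore already reflects a difference between the groups of that table, and that difference is described here without a test. The values are normalized per gene with 2 decimals, as TPM or FPKM values are, and the sources do not say which. No read total is given for any mouse, so the depth behind a value is unknown, and the precision rests on 3 mice per group. In whole kidney, fewer cells of a type and less RNA per cell cannot be told apart.

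The small subunit binds the messenger RNA and reads its codons, while the large subunit joins the amino acids. It is built from a ribosomal RNA and a fixed set of proteins, each encoded by its own gene, which cells make in proportion to each other. Messenger RNAs of ribosomal proteins begin with a C followed by a stretch of pyrimidines, the terminal oligopyrimidine tract, through which the growth regulator mTORC1 and the protein LARP1 control their translation. Because these messages are short and abundant, mammalian genomes carry many intronless copies of them, most of them pseudogenes.

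The copy that matters most here is Rps27rt, a retrogene of Rps27, since it had the largest difference of the 9 genes. Each stretch below runs from 30 bases before to 30 bases after the transcription start that RefSeq annotates (build GRCm38.p6), on the gene's own strand. The capitals mark the 29 bases that both stretches share, and they begin at the annotated start of Rps27rt. The stretch of Rps27rt lies at chr9:114982710-114982769 and that of Rps27 at chr3:90213619-90213678, both on the minus strand.
Rps27rt: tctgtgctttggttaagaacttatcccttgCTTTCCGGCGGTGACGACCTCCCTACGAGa
Rps27: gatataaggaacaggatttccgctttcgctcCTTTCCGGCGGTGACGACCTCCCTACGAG
Upstream of the capitals the sequences differ. Downstream, the transcript of Rps27rt in GENCODE release M21 (374 bases, 1 exon) matches the Rps27 transcript Rps27-201 (345 bases) at 341 of 341 aligned bases, with 0 mismatches in the coding part. Reads inside that stretch cannot be assigned to either gene by their sequence.

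Stretches near the starts of the other genes are shown because these genes differed together between 3HB and old mice. RefSeq promoter entries were found for 7 of the 9 genes by symbol. Capitals mark the longest run of C and T letters between 20 bases before and 50 bases after the annotated start. Where a gene has several starts, the one with the longest run is given. Counted from the annotated start (negative before it), the run began at -2 in Rps18, 8 in Rps12 and 12 in Rps13. It began at 39 in Rps19, 35 in Rps23 and 38 in Rps24, whose stretches lie wholly after the annotated start. The capitals are therefore not shown to be the tract with which the messenger RNA begins.
Rps12: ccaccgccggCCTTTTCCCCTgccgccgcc
Rps13: tgagtggcgtcaCTTCCTgtgcggcttgat
Rps18: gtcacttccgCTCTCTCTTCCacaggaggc
Rps19: cgcccgggaaaccccgtcgTTCCCTTTCCC
Rps23: tgggtccttcctgcaCCTCCTCTCTCTTTC
Rps24: ttggtcggcagtgagcggTCCTCTTTTCCT
These 30 bases lie at chr10:23787182-23787211 for Rps12, chr7:116334161-116334190 for Rps13, chr17:33955648-33955677 for Rps18, chr7:24884612-24884641 for Rps19, chr13:90923142-90923171 for Rps23 and chr14:24490698-24490727 for Rps24. Rps19, Rps23 and Rps24 lie on the plus strand and the others on the minus strand. Over all 10 annotated starts of the 7 genes, 8 had a run of at least 7 pyrimidines (80%), against 37.7% of the 32851 starts of all genes in the same window. Large subunit genes, whether or not in a table of these data (41 with an entry), had such a run at 37 of 48 starts (77.1%), so it is not particular to the genes described here. The letters CGGAAG, a core that ETS transcription factors bind, were searched on both strands of the 300 bases from 250 before to 50 after the start. They were found at 3 of the 10 starts (those of Rps12, Rps13 and Rps18), at 67.7% of the 31 starts of 26 small subunit genes taken whether or not in a table, and at 16.9% of all starts. These matches describe the sequence only.

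Copies of the other genes were counted in the same way, as stretches of 150 bases (the read length) in the coding transcripts of GENCODE release M21 (all transcripts for Rps4l, which has no coding one) that also occur in a transcript of another gene on either strand. Rps27rt shared 196 of its 225 windows (87.1%), all of them with Rps27. Rps12 shared 49.3% of its windows with 6 other genes, Rps23 shared 38.7% with 6 genes and Rps13 shared 25.2% with 5 genes. In single coding transcripts the share reached 87.2% for Rps12, 75% for Rps13, 45.1% for Rps19 and 30.7% for Rps24. Over all coding transcripts, Rps18 shared 19.4%, Rps19 shared 5.84%, Rps24 shared 5.01% and Rps20 shared 4.58%. The share of Rps20 is 163 of the 3557 windows of its 1 coding transcript. That transcript is long, while the median annotated transcript of Rps20 has 582 bases, so its low percentage does not mean that it has few copies. Rps4l shared 0 of 794 windows. Values of genes with shared windows depend on how the authors' counting split such reads, and the genome was searched only where M21 annotates a transcript.

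**Figure D1:**
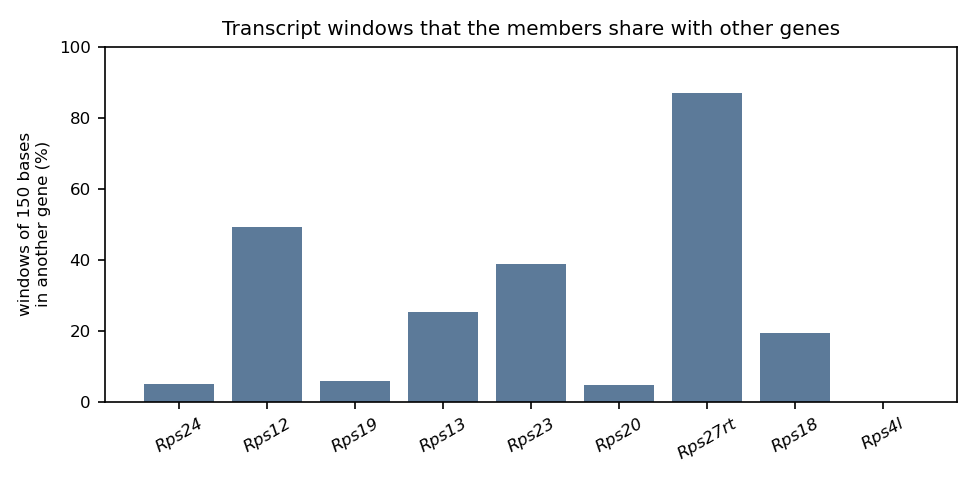
Share of 150 base windows of each gene's transcripts (vertical axis, percent) that also occur in a transcript of another gene, with the genes ordered by mean value from left to right. Rps27rt stands highest at 87.1%, followed by Rps12 at 49.3%, and Rps4l is at 0.

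The levels of the 9 genes spanned a wide range on the per-length scale of the tables. The mean over the 9 mice was 928.6 ± 144.8 for Rps24 (SD, n = 9 for each mean here), 681.2 ± 159.6 for Rps12, 583.2 ± 85.3 for Rps19 and 366.6 ± 89.4 for Rps13. It was 256.7 ± 48.6 for Rps23, 215.1 ± 67.6 for Rps20, 143.3 ± 74.0 for Rps27rt, 55.7 ± 16.3 for Rps18 and 7.23 ± 3.32 for Rps4l. The order from Rps24 to Rps23 held within each of the 9 mice. Rps23 was above Rps20 in 7 mice, Rps20 above Rps27rt in 8 and Rps27rt above Rps18 in 8, and the ranges over the mice overlapped for all neighbours down to Rps18. Rps18 was above Rps4l in all 9 mice, and their ranges did not overlap.

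**Figure D2:**
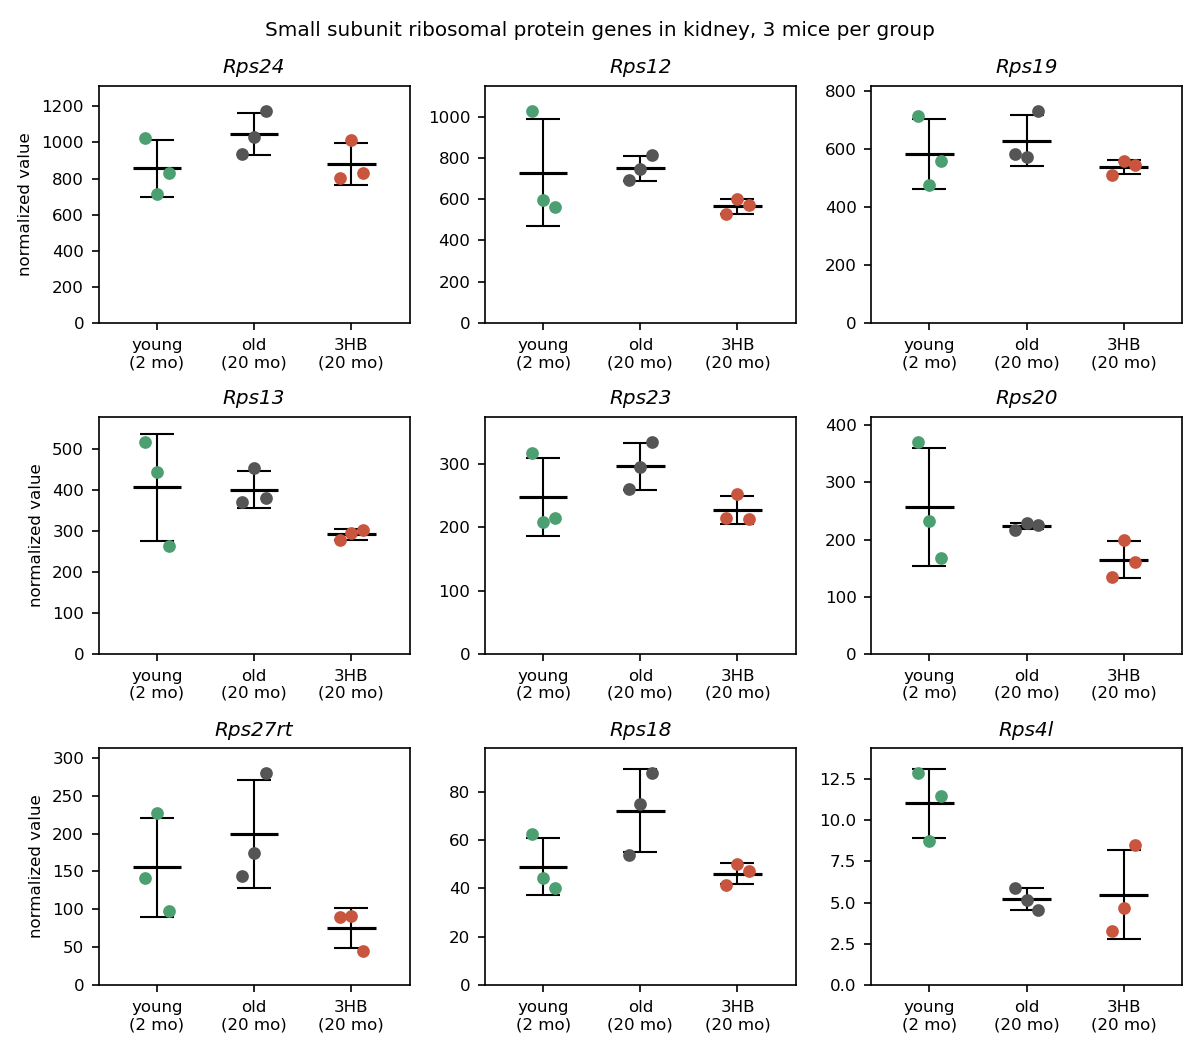
Normalized value (vertical axis, from 0, a separate scale per gene) of the 9 genes in each mouse of the young, old and 3HB groups, with points for mice and bars for the mean ± SD (n = 3). In Rps12 the 3HB mice lie between 526.6 and 599.2, below the old mice at 691.4 to 812.3, and in Rps4l the young mice lie above all others.

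The comparison of 3HB with old mice asks what the ketone body changed in aged kidney. All 8 genes of its table were lower in the 3HB mice, with a median log2 difference of -0.43 (mean log2(value + 1) of the 3HB mice minus that of the old mice, a scale that understates changes of low values). In 7 of the 8 genes the groups did not overlap. Of all 113 genes in that table, 89.4% did not overlap, 70 were lower with 3HB, 51.3% were lower without overlap and the median difference was -0.42, so the 8 genes are described against a list that was itself called on these mice. No p-value is given for these differences, since the contrast itself chose the genes. The differences ran from -0.22 in Rps19 to -1.41 in Rps27rt, or from 0.857 to 0.377 as the ratio of the 3HB mean to the old mean.

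Of these genes, 4 encode proteins of the subunit's head. Rps12 (ENSMUSG00000061983, chr10:23785183-23787275), whose protein sits at the edge of the head, was at 691.4, 745.7 and 812.3 in the old mice and at 526.6, 599.2 and 569.7 in the 3HB mice. All 3HB mice were below all old mice. The log2 difference was -0.41 (standard error 0.086), with means of 749.8 ± 60.5 in old and 565.1 ± 36.5 in 3HB mice (SD, n = 3 each). Rps18 (ENSMUSG00000008668, chr17:33951999-33956001) encodes a head protein at the contact with the large subunit. It was at 53.6, 74.9 and 87.5 in old and at 41.3, 49.9 and 46.9 in 3HB mice. The lowest old mouse and the highest 3HB mouse lay close together, and the log2 difference was -0.61 (standard error 0.22). Rps19 (ENSMUSG00000040952, chr7:24884371-24889806), the gene most often mutated in Diamond-Blackfan anaemia, was at 581.6, 573.6 and 729.8 in old and at 510.1, 558.9 and 545.5 in 3HB mice. The groups came close without overlapping, and the log2 difference was the smallest of the 8, at -0.22 (standard error 0.12). It was -0.10 without old mouse 3 and -0.092 with the medians of the mice. Rps20 (ENSMUSG00000028234, chr4:3831334-3835665), a head protein near the entry of the messenger RNA, was at 217.5, 228.3 and 225.6 in old and at 135.3, 198.8 and 160.0 in 3HB mice. The old mice were tightly grouped and the 3HB mice spread below them, with a log2 difference of -0.46 (standard error 0.16).

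The remaining genes encode proteins of the body and platform. Rps13 (ENSMUSG00000090862, chr7:116331505-116334195), whose protein binds the ribosomal RNA early in assembly, was at 369.8, 453.0 and 379.8 in old and at 277.1, 295.7 and 302.0 in 3HB mice. The groups were well apart, and the log2 difference was -0.45 (standard error 0.099). Rps23 (ENSMUSG00000049517, chr13:90922958-90924950) encodes a protein of the decoding centre. It was at 260.0, 294.7 and 333.7 in old and at 214.7, 253.0 and 213.4 in 3HB mice. 3HB mouse 2 came close to the lowest old mouse, and the log2 difference was -0.38 (standard error 0.13). Rps24 (ENSMUSG00000025290, chr14:24487125-24496959), also a Diamond-Blackfan anaemia gene, was at 938.8, 1028.6 and 1172.2 in old and at 801.4, 1013.5 and 828.4 in 3HB mice. Here 3HB mouse 2 lay above old mouse 1, so the groups overlapped, with a log2 difference of -0.25 (standard error 0.14), or -0.17 without old mouse 3.

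Rps27rt (ENSMUSG00000050621, chr9:114982366-114982739, minus strand) had the largest difference. It was at 144.0, 174.4 and 279.4 in old and at 89.9, 90.8 and 44.8 in 3HB mice. No 3HB mouse reached the lowest old mouse. The log2 difference was -1.41 (standard error 0.44), and it was -1.08 without 3HB mouse 3, the lowest of the 9 mice. Rps27 itself is not in either table, and with the identical transcript shown above the value of Rps27rt can hold reads of Rps27. How the reads were split was not tested.

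**Figure D3:**
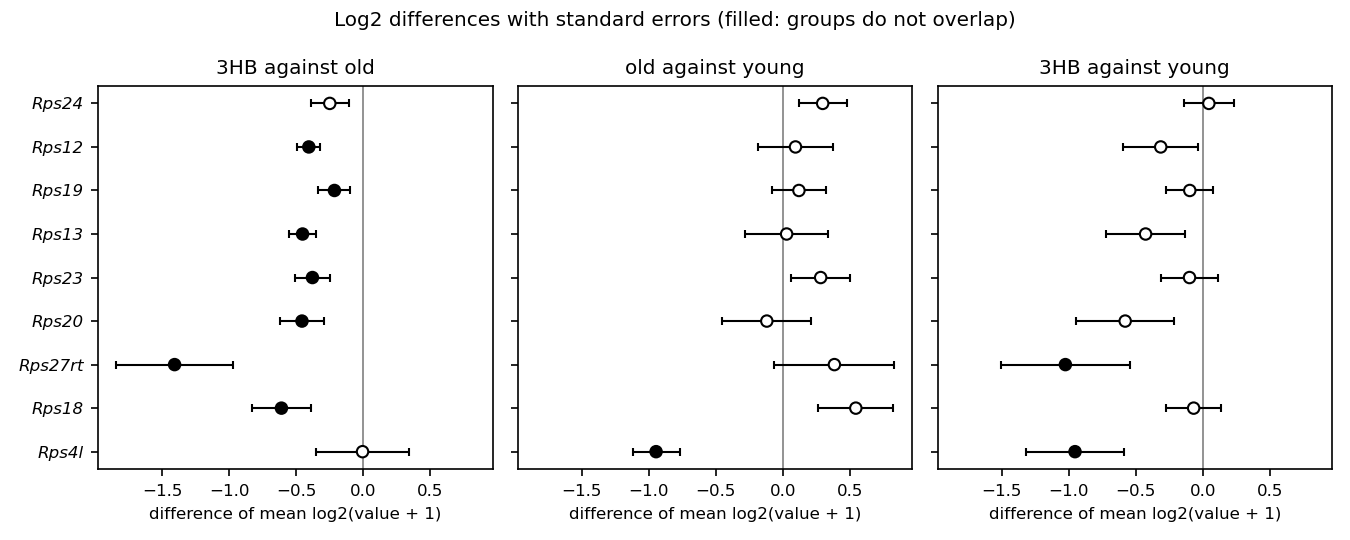
Difference of the mean log2(value + 1) between groups (horizontal axis, points with standard errors from 3 mice per group) for the 9 genes in 3HB against old, old against young and 3HB against young. Filled points mark genes whose groups do not overlap, which are 7 genes on the left, Rps4l in the middle, and Rps27rt and Rps4l on the right.

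Summed over the 8 genes, the values were 3256.8, 3573.1 and 4020.3 in the old mice and 2596.2, 3059.8 and 2710.7 in the 3HB mice. The 3HB mice all lay below the old mice. The means were 3616.7 ± 383.6 and 2788.9 ± 241.5 (SD, n = 3 each). Without Rps27rt the sums were 3417.5 ± 314.5 and 2713.7 ± 235.0. The proximal tubule marker Lrp2 moved the other way, at 87.9 to 105.3 in old and 143 to 154.5 in 3HB mice, and the part of cell makeup in the values was not tested. The mice kept similar places across genes. Old mouse 3 was the highest old mouse in 6 of the 9 genes and old mouse 1 the lowest in 7. In the 3HB group, mouse 1 was the lowest in 7 genes and mouse 2 the highest in 7.

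The genes varied with each other to different degrees. Each gene's log2(value + 1) was centred on its mean over the 9 mice, and its root mean square difference from the median of the 9 centred genes was taken as a measure of likeness. Rps23 lay nearest to that median (0.076), followed by Rps12 (0.10), Rps19 (0.13) and Rps24 (0.14). Rps18 was at 0.18, Rps13 at 0.22 and Rps20 at 0.23. Rps4l (0.57) and Rps27rt (0.62) stood far from the others. The largest single departure was that of Rps27rt in 3HB mouse 3, 1.25 below the median on the log2 scale (-1.25).

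**Figure D4:**
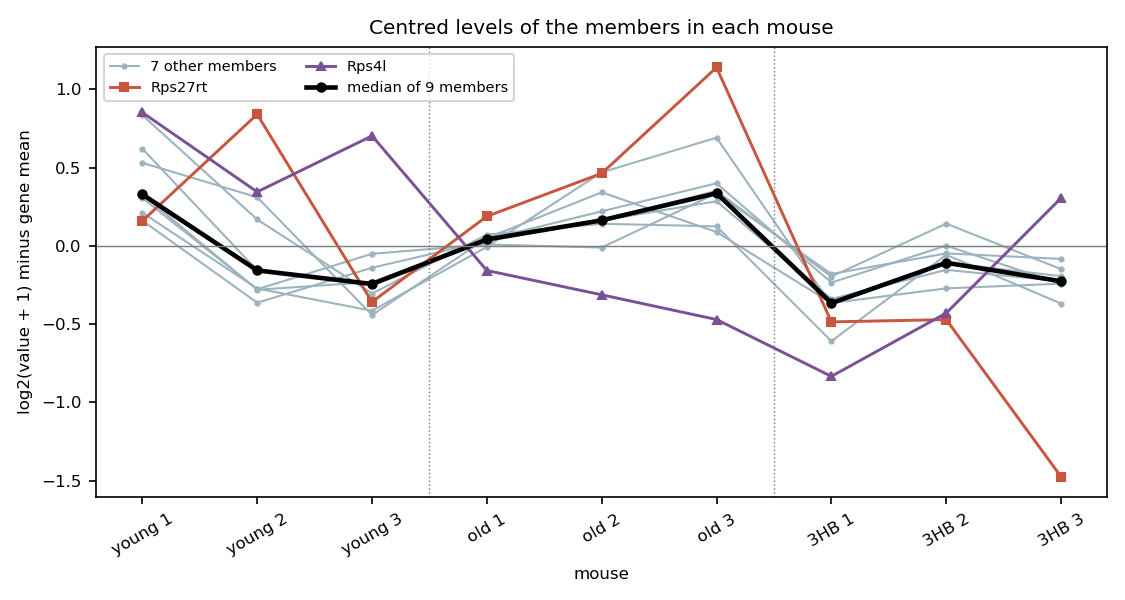
Log2(value + 1) of each gene minus its own mean over the 9 mice (vertical axis) for each mouse (horizontal axis, dotted lines between groups). The lines join the values of 1 gene and carry no order within a group, and the black line is the median of the 9 genes. Rps27rt and Rps4l leave the band of the 7 other genes, Rps27rt most in 3HB mouse 3 and Rps4l most in young mouse 3.

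The comparison of old with young mice asks what age alone changed. None of the 8 genes called for 3HB separated these groups, while 19.5% of the genes in the same table did, and 17.7% of that table were higher in old mice without overlap. Their log2 differences (old minus young) ran from -0.12 in Rps20 to 0.54 in Rps18, with a median of 0.20, and 7 of the 8 were higher in old mice on average. Of all 113 genes in the table, 88 were higher in old mice and the median was 0.25, so the 8 genes lay near their table. Two-sided exact permutation p-values ran from 0.2 to 0.9, or 0.242 to 0.917 adjusted over the 489 listed genes, a list called by the authors. Both comparisons share the same old mice, on which the genes were called. Rps18 was at 62.5, 44.4 and 40.1 in young mice, and the old mice (53.6 to 87.5) overlapped them. Rps24 was at 1027.1, 713.9 and 833.5 in young mice, with a log2 difference of 0.30 (standard error 0.18). Rps23 was at 317.7, 208.0 and 215.2, with a log2 difference of 0.28 (standard error 0.22). Without young mouse 2 the differences were 0.17 in Rps24 and 0.17 in Rps23. Rps27rt was at 141.1, 226.8 and 98.3, and the old mice (144.0 to 279.4) overlapped them.

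The young group itself was widely spread, and this limits the comparison. Young mouse 1 was the highest young mouse in 8 of the 9 genes and the highest of all 9 mice in 4. Rps12 was at 1025.1, 597.7 and 562.7 in young mice, Rps20 at 369.9, 232.7 and 167.4, and Rps13 at 516.3, 443.2 and 262.7. In Rps12 and Rps20 young mouse 1 exceeded each old mouse, while young mouse 3 lay below each of them. Small nucleolar RNA genes are annotated within Rps12 (3 genes), Rps13 (1) and Rps20 (1) on the same strand. Without young mouse 1, 0 of the 8 genes were lower in old mice and 5 of 8 showed no overlap, while 39.8% of the 113 genes showed none with the same mouse left out. A rescaling of each mouse on 80 genes called only for 3HB against the same old mice moved old against young mice by 0.19 on the log2 scale, and then 4 of the 8 genes were lower in old mice and their median was 0.014. As those genes were called on the old mice too, this shift is no independent measure of scale. Of 19 B and plasma cell markers looked up, 10 were in a table, and their summed value was 41.2 to 215.9 in young, 867.1 to 3157.8 in old and 2374.0 to 3465.8 in 3HB mice. Most of the sum was 1 gene, Igkc, at 37 to 197 in young, 771 to 2743 in old and 2072 to 3188 in 3HB mice. The ranges of the sum in old and 3HB mice overlapped, both lay above the young mice, and Ms4a1 was in neither table. The sum's part in the values of the 8 genes was not tested.

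Rps4l (ENSMUSG00000063171, chr6:148354656-148355598, plus strand) was called for age and not for 3HB. Its name marks it as like Rps4x, the gene of an RNA-binding protein of the subunit body. GENCODE release M21, however, annotates it as a transcribed pseudogene of 1 exon, which goes against its place among protein genes. It was at 12.8, 8.73 and 11.5 in young mice, at 5.87, 5.17 and 4.53 in old mice and at 3.30, 4.69 and 8.47 in 3HB mice. All young mice were above all mice of 20 months. The log2 difference of old against young was -0.95 (standard error 0.18), a contrast on which it was called. Of the 389 genes of that table, 27% were lower in old mice without overlap. The 3HB mice overlapped the old mice on both sides, with a log2 difference of -0.0056 (standard error 0.35) and an exact permutation p of 1.0 (two-sided), while 13.4% of the genes called for age did not overlap between these groups. Against the young mice, the log2 difference of the 3HB mice was -0.95 (standard error 0.37) without overlap. In the table for age, 82.3% of the genes did not overlap between 3HB and young mice and 21.1% were lower with 3HB without overlap. Within the 3HB group its coefficient of variation was 48.8%, against 12.9% in old mice. Rps4l lies in Tmtc1 on the opposite strand, as Rps18 overlaps Vps52 and Rps27rt overlaps Osbpl10. Whether the library kept the strand is not given in the sources used here, and without it reads of such pairs cannot be told apart.

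Compared with the young mice, the 3HB mice were lower in 7 of the 8 genes called for 3HB, with a median log2 difference of -0.21. Of all 113 genes in the table, 45 were lower in 3HB than in young mice, and the median was 0.18. With the medians of the mice, the median of the 8 genes was -0.051. Only Rps27rt among the 8 showed no overlap, at 98.3 to 226.8 in young and 44.8 to 90.8 in 3HB mice, while 38.1% of the 113 genes did not overlap and 8.85% were lower with 3HB without overlap. Its log2 difference was -1.02 (standard error 0.48, and -0.65 with the medians of the mice; two-sided exact permutation p = 0.1, the smallest possible, and 0.137 adjusted over the listed genes). Of the 489 listed genes, 357 reached that smallest p in this comparison, so the adjusted value reflects a list already called by the authors. The 3HB mice are those on which the genes were called. Without young mouse 1 the median difference was 0.010 and 4 of the 8 genes were lower.

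Of 54 large subunit genes, 5 were in the table for 3HB, and all 5 were lower with 3HB without overlap, by a median of -0.42, which is also the median of all 113 genes of that table, of which 51.3% were lower without overlap. The ribosomal stalk gene Rplp1 differed by -0.28, Rpl30 by -0.29, Rpl39 by -0.42, Rpl17 by -0.44 and Rpl22l1, a paralogue of Rpl22, by -0.53 on the log2 scale. Of 52 ribosome biogenesis genes 0 were in a table. Of 50 translation factors and associated genes 1 was, the oligopyrimidine tract gene Tpt1.

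Pseudogenes named for small subunit genes were also listed. In the table for 3HB, Rps18-ps3 measured 37.2, 35.7 and 51.2 in old mice and 29.5, 23.9 and 20.2 after 3HB, a log2 difference of -0.73 (standard error 0.22). Rps18-ps5 measured 167.3, 179.7 and 157.4 in old mice and 106.2, 129.3 and 129.0 in 3HB mice, a difference of -0.47 (standard error 0.11). Rps18-ps3 shares 37 windows with Rps18. Rps18-ps5 does not appear by that name among the genes that share windows with Rps18, and it had higher values than Rps18 in each of the 9 mice. Rps6-ps4 had means of 192.0 ± 6.72 in old mice and 134.7 ± 8.15 in 3HB mice (SD, n = 3 each), a difference of -0.51 (standard error 0.058). All 3 were lower with 3HB without overlap, as were 51.3% of the 113 genes of that table. In the table for age, Rps2-ps13 was at 562.9, 537.5 and 366.7 in young mice and at no more than 10.3 in any mouse of 20 months, while Rps2-ps10 was at 647.3 ± 88.2 in young and 329.6 ± 27.8 in old mice.

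The 5 listed genes with the profile most like the median of the 9 genes over the 9 mice were Gm10275, Tpt1, Rplp1, Bex3 and Isoc2a. Their root mean square differences were 0.078, 0.11, 0.11, 0.13 and 0.16, against a median of 0.76 over the 415 genes ranked, which had a mean value of at least 1. Gm10275 is annotated as a transcribed processed pseudogene and carries a ribosomal annotation in the table. Tpt1 had means of 2757.7 ± 165.7 in old mice and 2132.4 ± 180.0 in 3HB mice (SD, n = 3 each). All 5 stand in the table for 3HB and were lower with 3HB, as were 70 of all 113 genes there. Their direction was set by the choice, since the median profile they were matched to was itself lower in the 3HB mice.

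The median annotated transcript was at most 800 bases long in 7 of the 9 genes, and length moved with the direction of the difference in the table for 3HB. Among its genes that are not ribosomal, 20 of 29 with a median annotated transcript of up to 800 bases were lower with 3HB, against 30 of 64 longer genes. Among genes called only for age, without ribosomal and immunoglobulin genes, it was 26 of 58 short and 103 of 231 longer genes. The part of transcript length in the differences of the 9 genes was not tested.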

How the data were processed

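RNA of 9 kidneys (3 young, 3 old, 3 3HB mice) was sequenced by the authors as paired-end reads of 150 bp. The submitters' processing notes name CASAVA, HISAT2, StringTie and GRCm38, without versions. The 2 deposited tables give normalized values that are not counts, with annotation, and hold only genes called by the authors. The counting, the test and the threshold are not given in the sources used here. A count model or limma over all genes was therefore not used.

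Differences are between group means of log2(value + 1), with standard errors from both SDs. Single genes were tested by exact permutation (two-sided), where 20 ways to split 6 mice allow no p under 0.1. The adjustment by Benjamini-Hochberg covered only the 489 genes called by the authors, so it is no correction over all genes measured. Of the 489 genes, 479 were matched to GENCODE M21 by identifier. The replicate numbers were not taken as pairs, since their deviations did not go together. The genes and lists were chosen with earlier results of these data known. Other genes were named by rule: the 5 nearest in centred profile with a mean of at least 1, each listed Rps pseudogene and large subunit gene, and the parents of Rps27rt and Rps4l. Values of other small subunit genes are not reported here. The labels do not say more of the mice than their group, so p-values measure the spread between these samples. Scripts were tested on simulated data. Python 3.11.15, numpy 2.4.6, pandas 2.3.3 and matplotlib 3.10.9 were used.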

Additional observations from a re-analysis of the deposited data

How the results depend on the processing

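For 3HB against old, the median over the 8 genes lay between -0.47 and -0.35 without each mouse in turn, 8 of 8 stayed lower and 7 to 8 showed no overlap, where 89.4% to 96.5% of the 113 genes of the table showed none. The other alternatives (pseudocount 0.1, medians, ratio of group means, minimum mean, rescaling, replicate block) kept these values within the spread between mice. Rps19 ranged from -0.28 to -0.10 and Rps24 from -0.35 to -0.17 without single mice, both nearest 0 without old mouse 3. Rps4l alone changed sign, to 0.080 as a ratio of group means, and it ranged from -0.32 to 0.25 without single mice (above 0 without 3HB mouse 1 or 2 or old mouse 1).

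For old against young, the number of the 8 genes lower in old mice was 2 with medians, 2 as a ratio of group means and 4 after rescaling, against 1. Without each mouse in turn it ranged from 0 to 3, the number without overlap from 0 to 5 and the median from 0.088 to 0.36. The median was 0.30 with medians of the mice and 0.014 after rescaling. The number without overlap was 5 without young mouse 1, 2 without old mouse 1 and 1 without young mouse 2 or 3. Signs changed after rescaling in Rps12 (-0.093), Rps13 (-0.16) and Rps19 (-0.067), and in Rps13 with medians (-0.22) and as a ratio (-0.023). Without single mice, Rps12 ranged from -0.065 to 0.37, Rps13 from -0.26 to 0.23, Rps19 from -0.016 to 0.28, Rps20 from -0.39 to 0.18, Rps23 from 0.17 to 0.48, Rps24 from 0.17 to 0.43 and Rps27rt from 0.098 to 0.70. After rescaling, on genes called with the same old mice, Rps23 was at 0.095, Rps24 at 0.11 and Rps27rt at 0.20. Of the 113 genes, 22.1% to 52.2% showed no overlap when 1 mouse was left out.

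The alternatives for 3HB against young were added after seeing the data. Without each mouse in turn, the median of the 8 genes ranged from -0.33 to 0.010, the number lower from 4 to 8 and the number without overlap from 1 to 3, with the values 0.010 and 4 reached without young mouse 1, 2 without overlap without 3HB mouse 2 and 3 without young mouse 3, where 39.8% to 69.9% of the 113 genes showed none. With medians of the mice, the median of the 8 genes was -0.051, Rps18 was at 0.079, Rps24 at -0.0088 and Rps27rt at -0.65. Rps18 ranged from -0.20 to 0.12, Rps19 from -0.23 to 0.060, Rps23 from -0.21 to 0.097, Rps24 from -0.078 to 0.18 and Rps27rt from -1.31 to -0.69 without single mice. The cause of these changes was not tested.

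The labels give each group the same replicate numbers. With the replicate block the differences were the same (medians of -0.43, 0.20 and -0.21 over the 8 genes for 3HB against old, old against young and 3HB against young). The smallest exact sign-flip p that 3 pairs allow is 0.25, so no call could be made with the block. Deviations of same-numbered mice correlated between -0.24 and 0.16, so the numbers were not treated as pairs. Group size and unknown depth limit all comparisons.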
